A study of Homo sapiens with 12 samples.

Results

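The clustered protocadherins are the protein-coding genes on chromosome 5 whose symbols start with PCDHA, PCDHAC, PCDHB, PCDHGA, PCDHGB or PCDHGC followed by a number. GENCODE release 44 holds 53 of them among 19959 protein-coding genes on chromosomes 1 to 22 and X. All 53 were measured, and none was dropped by a filter. The alpha cluster has 15 members (chr5:140786136-141012347), the beta cluster 16 (chr5:141051374-141249365) and the gamma cluster 22 (chr5:141330514-141512977), all on the plus strand and with positions on GRCh38 (hg38). H3K4me2, a dimethyl mark on histone H3 that lies at promoters and enhancers, was mapped by ChIP-seq in U-937 cells. The sample labels name this established human line as AML (acute myeloid leukaemia) cells. Cells received DMSO as vehicle, all-trans retinoic acid (ATRA, 0.1 µM), Corin (0.1 µM), or ATRA and Corin together (0.1 µM each), for 24 hours. Corin acts on the CoREST complex, where it blocks both the demethylase LSD1 and the partner deacetylases. Each treatment has 2 H3K4me2 libraries and 1 input library from this 1 cell line, and whether the libraries came from separate cultures is not given in the sources used here.

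Clustered protocadherins are cell-surface cadherins best known from neurons, where each cell expresses a small, partly random set of them and cells recognise others that carry a matching set. In the alpha and gamma clusters every member has a promoter and a large first exon of its own. It is spliced to a few exons that all members of the cluster share. Beta genes lack shared exons. CTCF and cohesin bind the active promoters and loop them to distant enhancers, whereas inactive promoters carry DNA methylation and H3K9 methylation. LSD1 removes methyl groups from H3K4me2, and CoREST was first described as a partner of REST, the repressor of neuronal genes.

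The authors deposited 1 list of H3K4me2 peaks per treatment, which stands for its libraries together, so replicate values and their spread are unknown and no p-value is given. Every statement compares these lists. The DMSO list held 65172 peaks, the ATRA list 66385, the Corin list 73997 and the list of both drugs 83969, and library depth is not given by them. As a limited check of the cell type, start sites of a few lineage genes were examined. Those of SPI1, CD33, PTPRC and LYZ, known from the monocytic and leukocyte lineages, had a peak within 1 kb in all 4 lists. That of CD14, a monocyte gene, had one in 3 lists and lay 1070 bp from a peak in the Corin list. Start sites of CD3E (T cells), GATA1 (erythroid cells), SNAP25 and SYT1 (neurons) had none. No expression was measured in these files.

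Most clustered protocadherin promoters carried no H3K4me2 peak in any list. In the DMSO list 4 of 53 members had a peak within 1 kb of the canonical start site, or 7.55% (95% Wilson interval 2.97 to 17.9%, counting error only), against a background of 61.3% of all protein-coding start sites. In the ATRA, Corin and ATRA+Corin lists the number was 5 in each, or 9.43% (4.10 to 20.3%), against 61.5%, 61.5% and 62.3%. The members with a peak in all 4 lists were PCDHB2, PCDHB14, PCDHGB2 and PCDHGB6, and PCDHGC3 had a peak in the 3 drug lists and none in the DMSO list. The other 48 members had none. Each of the 5 start sites lay under a peak in at least 1 list, and the nearest members outside the 1 kb window were PCDHA2, 3233 bp from a peak in its nearest list, and PCDHGA5, at 3250 bp.

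**Figure D1:**
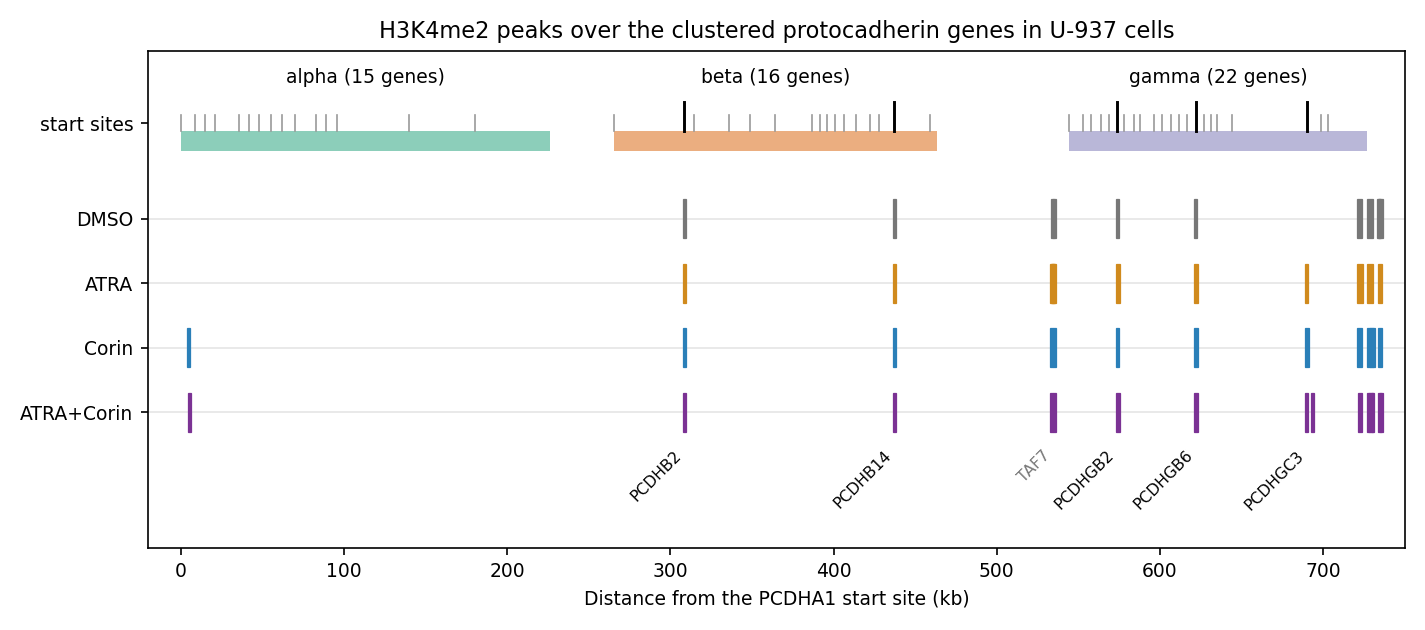
Map of the 3 clusters, with distance from the PCDHA1 start site in kb on the x axis. Ticks above the coloured bars are the 53 canonical start sites (tall and black for the 5 with a peak within 1 kb in any list), and blocks in the 4 lower rows are the peaks of each list, drawn at least 2 kb wide. The alpha cluster is empty in the DMSO and ATRA rows, and the last block inside the gamma cluster is the peak in the shared intron. The blocks between the beta and gamma clusters lie at TAF7, and the last ones on the right lie past the gamma cluster.

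The promoters of the marked members are shown with the nearest member of the same cluster that had no peak, since they carry similar words of sequence and differ in the mark. Each sequence is the 120 bases before the gene's most upstream annotated start site, plus strand of hg38, 5′ to 3′, with CGCT in capitals wherever it occurs on that strand. CGCT is the core of a conserved element that most clustered protocadherin promoters share and that overlaps their CTCF site. Capitals mark a match to these letters alone, and whether a given copy belongs to the element was not tested. Such matches also occur elsewhere, as 36.2% of all protein-coding promoters held CGCT in the 100 bases before the start site. The pairs are PCDHB2 and PCDHB3, PCDHB14 and PCDHB13, PCDHGB2 and PCDHGA5, PCDHGB6 and PCDHGA10, and PCDHGC3 and PCDHGC4, with the marked gene first.
PCDHB2, chr5:141094486-141094605: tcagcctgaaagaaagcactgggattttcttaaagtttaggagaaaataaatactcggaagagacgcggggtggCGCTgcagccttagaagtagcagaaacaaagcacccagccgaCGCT
PCDHB3, chr5:141100353-141100472: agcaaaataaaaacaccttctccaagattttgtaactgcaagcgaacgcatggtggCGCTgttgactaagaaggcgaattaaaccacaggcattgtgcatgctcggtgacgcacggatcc
PCDHB14, chr5:141223223-141223342: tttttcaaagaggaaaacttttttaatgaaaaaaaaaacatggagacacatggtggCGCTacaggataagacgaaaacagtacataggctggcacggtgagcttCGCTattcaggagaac
PCDHB13, chr5:141213799-141213918: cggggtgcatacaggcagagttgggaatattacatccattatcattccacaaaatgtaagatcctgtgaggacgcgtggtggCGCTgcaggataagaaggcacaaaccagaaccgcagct
PCDHGB2, chr5:141359874-141359993: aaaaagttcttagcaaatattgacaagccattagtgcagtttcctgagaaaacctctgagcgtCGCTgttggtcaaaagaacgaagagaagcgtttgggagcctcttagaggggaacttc
PCDHGA5, chr5:141364042-141364161: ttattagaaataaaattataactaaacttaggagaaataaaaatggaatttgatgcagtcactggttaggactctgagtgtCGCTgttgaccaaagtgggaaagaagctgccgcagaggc
PCDHGB6, chr5:141407901-141408020: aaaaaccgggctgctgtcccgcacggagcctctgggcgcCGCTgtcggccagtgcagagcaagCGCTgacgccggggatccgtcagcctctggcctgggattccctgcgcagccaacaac
PCDHGA10, chr5:141412867-141412986: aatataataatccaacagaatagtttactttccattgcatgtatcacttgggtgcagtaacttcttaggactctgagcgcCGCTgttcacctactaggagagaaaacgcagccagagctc
PCDHGC3, chr5:141475827-141475946: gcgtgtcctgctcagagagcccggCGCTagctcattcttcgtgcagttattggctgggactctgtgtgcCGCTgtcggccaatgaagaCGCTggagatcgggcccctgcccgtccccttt
PCDHGC4, chr5:141484877-141484996: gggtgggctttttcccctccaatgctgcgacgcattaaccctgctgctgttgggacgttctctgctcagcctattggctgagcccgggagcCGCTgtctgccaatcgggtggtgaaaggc

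CGCT stood in the 100 bases before the canonical start site, on the gene's own strand, in 48 of 53 members, or 90.6%, compared with 36.2% of all protein-coding promoters in a stretch of that length. The members without it there were PCDHA9, PCDHB6, PCDHB8, PCDHGA12 and PCDHGC5. For PCDHA9 the canonical start site (140848382) lies inside the gene, which starts at 140847772. The bases before that gene start were not part of the count. All 5 members with a peak held it, and so did the unmarked members printed beside them. The letters around it differed by cluster. TGTCGCT stood in these 100 bases in 12 of 15 alpha members, 1 of 16 beta members and 3 of 22 gamma members, and TGGCGCT in 0 alpha, 13 beta and 2 gamma members. GCCGCTG stood in 12 of 22 gamma members and in 0 alpha and 0 beta members. All protein-coding promoters held these words at 0.381%, 1.12% and 2.65%, in the order given. These 7-letter words contain CGCT, were searched on the gene's own strand only, and were chosen after the promoters had been read. In the printed pairs, the CGCT nearest to 60 bases upstream of the canonical start site lay at -55 in PCDHB2 and -64 in PCDHB3, at -64 in PCDHB14 and -38 in PCDHB13, and at -57 in PCDHGB2 and -39 in PCDHGA5, counted from the start site to the C. It lay at -57 in PCDHGB6 and -40 in PCDHGA10, and at -51 in PCDHGC3 and -62 in PCDHGC4. By this rule the marked gene had it farther from the start site in 3 of the 5 pairs and nearer in the other 2. Marked genes also held CGCT at -13 (PCDHB2), -16 (PCDHB14), -81 (PCDHGB6), and -115 and -70 (PCDHGC3). The -70 copy of PCDHGC3 lay farther out than the copy of PCDHGC4, and the -16 copy of PCDHB14 nearer than that of PCDHB13. The count thus depends on the copy taken, and no difference between marked and unmarked genes is read from it.

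The alpha cluster had no marked start site. All 13 PCDHA members and both C-type members, PCDHAC1 and PCDHAC2, lacked a peak within 1 kb in the 4 lists. C-type genes lie at the ends of the alpha and gamma clusters and are known for expression in most neurons without the random choice seen in other members. In the DMSO and ATRA lists there was no peak anywhere in the 226 kb of the cluster, and its start sites lay a median of 115 kb from the nearest peak in both. PCDHA1, the first member, lay 59968 bp from a DMSO peak and 59708 bp from an ATRA peak. PCDHAC1 was the farthest member in every list, at 168357 bp with DMSO, 168302 bp with ATRA, 134961 bp with Corin and 134680 bp with both drugs. PCDHAC2, the last member, lay between 128119 and 128246 bp from a peak in all 4 lists.

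One region of the alpha cluster was marked, and it was marked in the lists with Corin. It ran from 140790775 to 140791619 on chromosome 5, in the first intron of PCDHA1, outside annotated exons and inside the body of the antisense lncRNA gene ENSG00000279726. The Corin peak was 564 bp wide, with a fold enrichment over input of 5.41 and a −log10 q of 7.17. The ATRA+Corin peak was 577 bp wide, with a fold of 2.20 and a −log10 q of 1.34, which put it above 2.12% of the peaks of its list. The peaks of the region ended 3514 bp (Corin) and 3233 bp (ATRA+Corin) before the PCDHA2 start site, so neither reached a member's promoter. The Corin and ATRA+Corin peaks overlapped each other by part of their length, and the peak in the combination list was near the bottom of its list. Under a limit of 5 on −log10 q, or with lists of equal length, that peak dropped out and the Corin list alone marked the region.

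The beta cluster had 2 marked members of 16 in each list. PCDHB2, the second member of the cluster by position, had peaks of 516 bp (DMSO), 600 bp (ATRA), 541 bp (Corin) and 590 bp (ATRA+Corin). Its start site lay under the ATRA peak and under the ATRA+Corin peak, 41 bp before the DMSO peak and 107 bp before the Corin peak. Fold enrichment was 4.96 with DMSO, 8.48 with ATRA, 2.97 with Corin and 6.90 with both drugs. The −log10 q was 9.03, 16.3, 2.48 and 12.2 in the same order. The Corin peak of PCDHB2 ranked above 6.71% of the peaks of its list, and those of the other lists above 41.1 to 46.2%, so the Corin list held it as one of its weak peaks. Under a limit of 5 on −log10 q, the Corin list had 4 marked members and PCDHB2 was not among them. An exon of the lncRNA PCDHB1-AS1 overlaps the same region. Fold and q are the authors' values for each peak and are used here to rank peaks within a list.

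PCDHB14 had the strongest start-site peak of the members by −log10 q in every list. Its peaks were 804 bp (DMSO), 645 bp (ATRA), 723 bp (Corin) and 627 bp (ATRA+Corin) wide and covered the start site in all 4 lists. Fold enrichment was 12.4 with DMSO, 14.1 with ATRA, 12.2 with Corin and 15.0 with both drugs, and the −log10 q was 28.4, 38.1, 29.7 and 41.0. These peaks ranked above 66.6%, 62.4%, 68.1% and 72.0% of their lists. A further protein-coding model, ENSG00000279983, starts inside the same region, so the mark cannot be assigned to PCDHB14 alone. The remaining 14 beta members had no peak within 1 kb. PCDHB1, the first member, lay 43221 to 43348 bp from a peak over the 4 lists, and PCDHB15, the last member, 21344 to 21560 bp. PCDHB6 was the farthest member, with a distance of 54.9 kb in the DMSO, ATRA and ATRA+Corin lists and 54.8 kb in the Corin list.

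**Figure D2:**
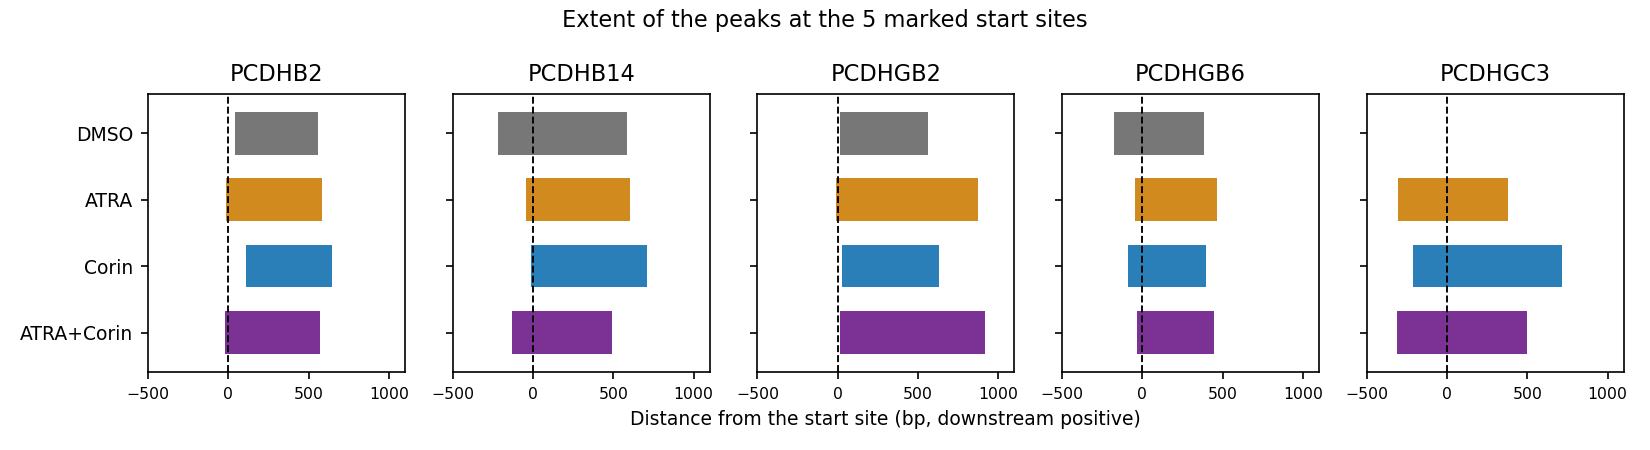
Extent of the peaks at the 5 marked start sites, 1 panel per gene and 1 row per list, with distance from the canonical start site in bp on the x axis (downstream positive) and the start site as a dashed line. Most of each block lies to the right of the line, and the DMSO row is empty for PCDHGC3.

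In the gamma cluster, no member of the PCDHGA group (12 genes) had a peak at its start site in any list, and the marked members were 2 of the 7 PCDHGB genes and 1 of the 3 C-type genes. PCDHGB2 had peaks of 545 bp (DMSO), 881 bp (ATRA), 604 bp (Corin) and 906 bp (ATRA+Corin). Its start site lay under the ATRA peak and 16, 25 and 13 bp before the DMSO, Corin and ATRA+Corin peaks. Fold enrichment was 5.62 with DMSO, 10.7 with ATRA, 5.63 with Corin and 5.87 with both drugs, and the −log10 q was 7.38, 24.3, 8.06 and 8.45. PCDHGB2 ranked above 53.7% of the peaks in the ATRA list and above 36.3 to 38.5% in the others.

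PCDHGB6 had a peak of similar rank in each list. Its peaks were 560 bp (DMSO), 508 bp (ATRA), 485 bp (Corin) and 479 bp (ATRA+Corin) wide and covered the start site in all 4 lists. Fold enrichment was 9.80, 10.5, 9.45 and 10.1 and −log10 q was 19.8, 23.1, 20.3 and 22.1 in that order, which ranked above 52.7 to 59.4% of each list. PCDHGB7, which lies past PCDHGA10, shares 11.1% of the 75-base words around the start site with PCDHGB6 and had no peak within 1 kb.

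PCDHGC3, a C-type gene, was the member whose start site was marked with each drug and not with vehicle. Its peak was 685 bp wide with ATRA, 930 bp with Corin and 809 bp with both drugs, and covered the start site in each. Fold enrichment was 7.58 (ATRA), 5.84 (Corin) and 6.18 (ATRA+Corin), with −log10 q values of 14.2, 8.97 and 9.27, which ranked above 42.5%, 38.9% and 40.3% of those lists. In the DMSO list the nearest peak lay 30948 bp away. PCDHGC3 was thus the 1 member of 53 with a gained start site in each contrast with DMSO. Over all protein-coding genes 0.696% of start sites were gained by ATRA, 0.822% by Corin and 1.44% by ATRA+Corin, and a count of 1 gene cannot be set apart from such shares. These 3 contrasts share the DMSO list, so they are not separate observations of its absence there. No member lost its peak in a contrast with DMSO, where 0.536%, 0.661% and 0.491% of all start sites were lost. Against either single drug ATRA+Corin gained and lost no member, with backgrounds of 1.21% gained and 0.421% lost against ATRA and 1.08% and 0.296% against Corin.

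The other C-type genes of the gamma cluster had no peak at the start site. PCDHGC4 lay 21884 bp from a peak with DMSO, 8683 bp with ATRA, 8347 bp with Corin and 5087 bp with both drugs. PCDHGC5, the last member, lay 17833, 12734, 12398 and 9138 bp from a peak in the same order. These shorter distances in the drug lists come from peaks at PCDHGC3 and, in the ATRA+Corin list, from a further peak of 245 bp (chr5:141479699-141479943) with a fold of 4.73 and a −log10 q of 5.81. That peak was in no other list and lay outside the exons of PCDHGC3, 74 bp from RN7SL68P, a copy of the repeated 7SL RNA sequence. PCDHGA1, the first gamma member, lay 8371 to 8865 bp from a peak over the lists.

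The start-site peaks of the members were narrow beside those at other start sites and lay mostly over the first exon. Of the 19 peaks at member start sites over the 4 lists, every one was under 1000 bp wide (479 to 930 bp). Among all protein-coding start sites with a peak within 1 kb, the nearest peak was under 1000 bp wide in 9.27% with DMSO, 7.58% with ATRA, 10.7% with Corin and 10.6% with both drugs. The median width at those start sites was 2253 bp in the DMSO list, compared with 552 bp for the 4 member peaks. Over all peaks, at start sites or not, the median width was 741 bp (DMSO), 870 bp (ATRA), 872 bp (Corin) and 848 bp (ATRA+Corin). Member medians of 552, 645, 604 and 627 bp were nearer to these. The member peaks were also weaker in the DMSO list, with −log10 q of 7.38 to 28.4 against a median of 76.7 at all marked start sites. A peak that reached over 200 bp upstream of the start site was found at 1 member in each list (PCDHB14 in the DMSO list and PCDHGC3 in the others), whereas 66.0% of all marked start sites in the DMSO list and 57.9 to 68.8% in the other lists had one. The first exon held 68.9 to 100% of each peak at PCDHB2, PCDHB14, PCDHGB2 and PCDHGB6, and 55.8 to 77.2% at PCDHGC3. The first exons are 2563 to 4417 bp long in these 5 genes, and the peaks covered 11.2 to 35.3% of them.

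The start site itself was under the peak in 2 members in the DMSO list (PCDHB14 and PCDHGB6), 5 with ATRA, 3 with Corin and 4 with both drugs. Over all protein-coding genes this share was 47.3%, 48.1%, 38.0% and 38.0% in that order. At PCDHB2 and PCDHGB2 the peaks that missed the start site began 13 to 107 bp after it, and how far an edge differs between replicates is unknown. PCDHGC3 differed in another way, since the DMSO list held no peak within 30948 bp of it and its start site lay under the peak in the other 3 lists.

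The widest and strongest peak in the 3 clusters lay at no start site. It stood in the intron before the last exon that all 22 gamma members share, an intron of 5465 bp, in each of the 4 lists (region chr5:141506797-141510286). The peak was 2941 bp wide with DMSO, 3212 bp with ATRA, 3083 bp with Corin and 2882 bp with both drugs, and it was wider than 90.2 to 93.2% of each list. Fold enrichment was 16.4 with DMSO, 43.6 with ATRA, 26.4 with Corin and 28.2 with both drugs. The −log10 q was 72.2, 181, 93.7 and 99.0, which ranked above 84.5%, 91.5%, 93.2% and 89.6% of the lists. It ended 660 to 1092 bp before the last shared exon and began 17716 bp or more after the PCDHGC5 start site. The nearest annotated start site of a gene outside the family, that of RN7SL68P, lay 27481 bp away.

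Past the end of the gamma cluster the mark went on. In the 10 kb after the last gamma base 52.2% of the sequence lay under DMSO peaks, 60.9% under ATRA peaks, 56.9% under Corin peaks and 57.6% under ATRA+Corin peaks. These peaks formed 2 regions at the 3′ end of DIAPH1, which encodes an actin-nucleating formin and is transcribed towards the cluster on the minus strand. The first, chr5:141513116-141516994, began 139 bp after the last gamma exon and reached into exons of DIAPH1, and the second, chr5:141519693-141522106, lay within the gene. Both were in all 4 lists.

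Summed over the clusters, few bases were marked. In the alpha cluster 0% of the sequence lay under peaks in the DMSO and ATRA lists, 0.249% with Corin and 0.255% with both drugs. The beta cluster had 0.667%, 0.629%, 0.638% and 0.615% in the order DMSO, ATRA, Corin and ATRA+Corin, and the gamma cluster 2.22%, 2.90%, 2.80% and 2.92%. Over the genome 2.42%, 2.76%, 3.13% and 3.58% lay under peaks. In kb, the 3 clusters together held 5.37 kb under 5 DMSO peaks, 6.53 kb under 6 ATRA peaks, 6.93 kb under 7 Corin peaks and 7.12 kb under 8 ATRA+Corin peaks, of 607 kb. The single peak in the shared gamma intron made up most of the marked bases of the gamma cluster in the DMSO list (2941 bp of 4.05 kb).

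**Figure D3:**
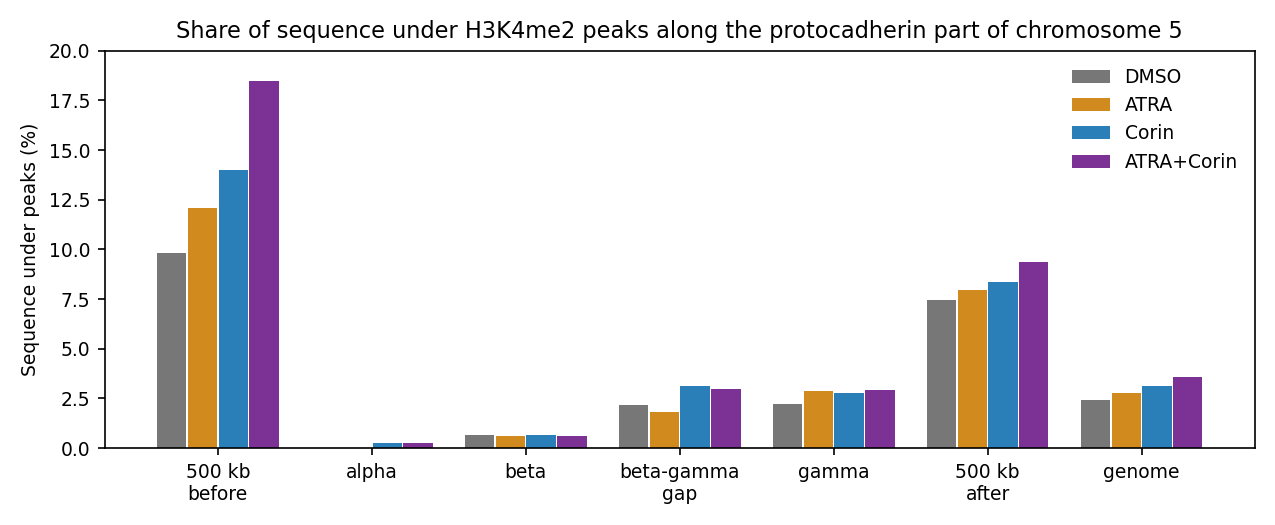
Share of sequence under H3K4me2 peaks (y axis, %) in stretches of chromosome 5 in order of position and over the genome, with 1 bar per list. The alpha and beta clusters lie below 1% in every list, the gamma cluster lies between 2.22% and 2.92%, and the 500 kb on either side lie between 7.44% and 18.5%.

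The chromosome around the clusters was densely marked. The 500 kb before the alpha cluster had 9.84% (DMSO), 12.1% (ATRA), 14.0% (Corin) and 18.5% (ATRA+Corin) of its sequence under peaks, and the 500 kb after the gamma cluster 7.44%, 7.94%, 8.38% and 9.39%. The neighbours were 30 protein-coding genes that are not members, with a start site within 500 kb of the clusters, between them or inside them. Of these, 27 had a peak within 1 kb in the DMSO list and 26 had one in all 4, against 61.3% and 60.4% of all protein-coding genes. The 30 include ENSG00000279983, which starts inside the PCDHB14 region, so the same peaks are counted there for a member and for a neighbour. SLC4A9, DND1 and SLC25A2 had none in any list. TAF7, a subunit of the general transcription factor TFIID whose gene lies between the beta and gamma clusters, had a peak within 1 kb in all 4 lists, whereas SLC25A2, a mitochondrial carrier gene between the same clusters, did not. The list of neighbours includes HDAC3, PCDH1 and PCDH12, all with a peak in all 4 lists. PCDH1 and PCDH12 are also counted among the non-clustered protocadherins, so these sets overlap.

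Merged into regions, the peaks of the 4 lists gave 8 regions in the clusters out of 84577 in all, of which 5 were in all 4 lists. Against DMSO, ATRA gained 1 region (PCDHGC3) and lost 0, with backgrounds of 11.7% of all regions gained and 5.43% lost. Corin gained 2 (PCDHGC3 and the PCDHA1 intron) and lost 0 (backgrounds 17.3% and 5.76%). ATRA+Corin gained 3, the third being the peak near RN7SL68P, and lost 0 (32.1% and 4.18%). Against ATRA, the combination gained 2 and lost 0 (26.2% and 4.59%), and against Corin it gained 1 and lost 0 (22.5% and 6.19%). With 8 regions, these counts are near the background, and nothing particular to the clusters is read from them.

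Related genes outside the clusters were counted in the same way. Among 12 non-clustered protocadherins, which are single genes with the same kind of extracellular domain, 3 had a peak within 1 kb in each list, namely PCDH1, PCDH12 and PCDH20 (25.0%, Wilson interval 8.89 to 53.2%). Of 9 large cadherins of the FAT, DCHS and CELSR families, which act in planar polarity and growth control, CELSR2 had one in all 4 lists. FAT4 had a peak over its start site in the ATRA and ATRA+Corin lists, while the nearest DMSO and Corin peaks lay 601329 and 601150 bp away. All 18 regulators of the clusters in the list, among them CTCF, the cohesin subunits RAD21, SMC1A and SMC3, the silencing factor SMCHD1, the DNA methyltransferases DNMT1, DNMT3A and DNMT3B, REST and the CoREST scaffold RCOR1, had a peak within 1 kb in all 4 lists. The share over all protein-coding genes was 60.4%, and nothing particular to these regulators is read from the count. Among other gene families in tandem, the share in the DMSO list was 38.5% for 39 HOX genes and 59.3% for 246 zinc finger genes of chromosome 19. Their Wilson intervals were 24.9 to 54.1% and 53.1 to 65.3%. Genes of a cluster are neighbours and not independent draws, so these differences were not tested.

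**Figure D4:**
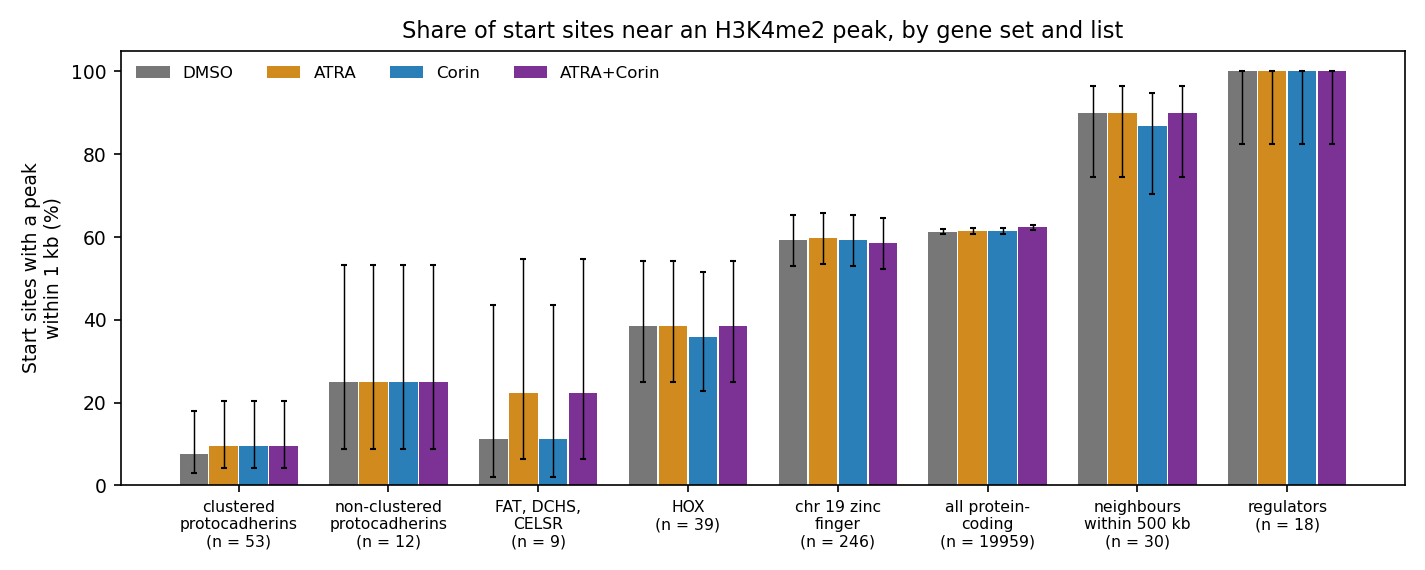
Share of canonical start sites with an H3K4me2 peak within 1 kb (y axis, %), by gene set, with 1 bar per list, 95% Wilson intervals as error bars and the number of genes under each set. The clustered protocadherins lie at 7.55% to 9.43% and all protein-coding genes at 61.3% to 62.3%.

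The promoters of the members held few CpG. The window from 250 bases before to 50 bases after the start site held a median of 7 CpG in the members (2 to 27) and 23 in all other protein-coding genes. GC content had a median of 39.3% in the members and 63.7% in the others. The ratio of observed to expected CpG, which allows for base composition, ran from 0.219 in PCDHGC5 to 1.07 in PCDHB4. No such ratio is given for other genes. The C-type members stood apart, with 55.7 to 66.0% GC against 32.3 to 50.0% in the other 48. PCDHAC1 had 27 CpG, PCDHGC4 had 23, PCDHGC3 had 18, PCDHAC2 had 15 and PCDHGC5 had 5, and only PCDHGC3 among them was marked. The marked members covered a wide range, with 10 CpG in PCDHB2, 8 in PCDHB14, 5 in PCDHGB2, 16 in PCDHGB6 and 18 in PCDHGC3. Among promoters with 5 to 10 CpG, the lower and upper quartile of the members, 3 of 35 members had a peak within 1 kb in the DMSO list (8.57%), compared with 717 of 2274 other protein-coding genes (31.5%). In the ATRA+Corin list the counts were 3 of 35 and 774 of 2274 (34.0%). These 2274 genes had a median GC content of 54.7%, against 39.3% in all members, so the band matched CpG number and not GC content. CpG number and marking were compared here as descriptions, and the part of base composition in the low share was not tested.

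**Figure D5:**
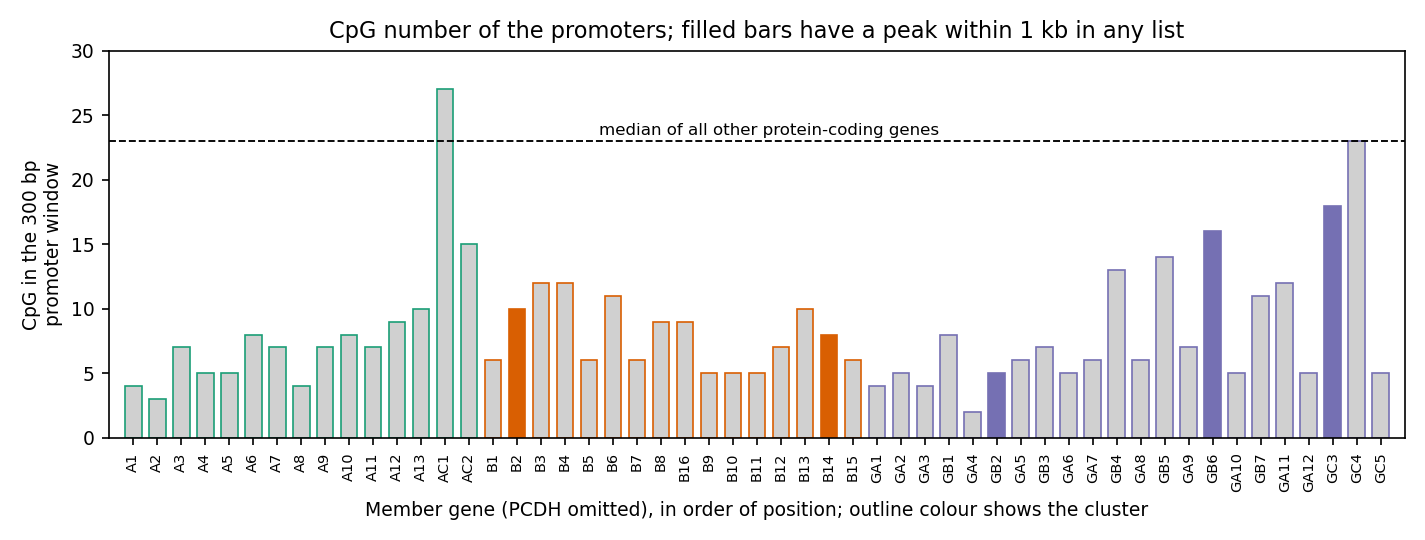
Number of CpG in the 300 bp promoter window (y axis) of each of the 53 members in order of position, with filled bars for the 5 members with a peak within 1 kb in any list and the outline colour for the cluster. The dashed line is the median of all other protein-coding genes (23), reached by PCDHAC1 (27) and PCDHGC4 (23).

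Similar members can share reads, and how the authors treated reads with several matches is not given in the sources used here. Of the 75-base words from 500 bases before to 1000 bases after each start site, all occurred once in the genome for 33 of 53 members, and at least 90% did for 42. Among the 48 members without a peak the numbers were 29 and 38. The lowest values were 55.1% for PCDHB8 and PCDHB13, which shared 44.9% of their words with each other, 68.5% for PCDHA9 and 69.4% for PCDHA7. Among the marked members PCDHGB6 had 88.9% and the other 4 had 100%. The part of shared sequence in the missing peaks was not tested.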

How the data were processed

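H3K4me2 was measured in U-937 cells under 4 treatments, with 2 H3K4me2 libraries and 1 input library each, 12 libraries in all. The authors deposited 1 peak list per treatment. The submitters' processing notes name Trimmomatic, Bowtie2, Picard, MACS2 and the build hg38, without versions; thresholds are not given in the sources used here. Per the deposited file names, each list is an optimal set of peaks reproducible by overlap, called against input. The deposited fold enrichment is a ratio over input, and the deposited −log10 p and −log10 q values come from the same caller. Depth per library is not given by the lists.

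Canonical start sites came from GENCODE release 44, and sequences from hg38. A member was counted when a peak lay within 1 kb of its start site. Overlapping or touching peaks of the lists were joined into regions, and gained and lost regions were counted between lists. Shares have 95% Wilson intervals. Named were members with a peak in any list, C-type members and the first and last of each cluster. Peaks are numbered, and among the 30000 lowest numbers 16 to 22 per list are not in the lists used here, so their positions are unknown. The members and gene lists were chosen with earlier results of these data known; the HOX, zinc finger and lineage genes and the sequence comparisons were added after the peaks had been seen. One further lineage gene that was checked is not reported here, so the printed lineage genes are not the whole set examined. Overlap code was tested on simulated peaks (Python 3.11.15, numpy 2.4.6, pandas 2.3.3, scipy 1.17.1). The alternatives tried were a limit of 5 on −log10 q (on both lists, or on the side with the peak), equal list lengths, other windows and start sites, spans widened by 10 kb, peaks within 1 kb merged, and 50% overlap.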

Additional observations from a re-analysis of the deposited data

How the results depend on the processing

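The number of members with a peak stayed within 1.5 times the reported count in 18 of 20 alternatives; with the start site required under the peak it was 2 for DMSO and 3 for Corin. With a limit of 5 on −log10 q, and also with lists of equal length, the sequence covered over the 3 clusters was 6.39 kb for Corin and 6.54 kb for ATRA+Corin. With spans widened by 10 kb it was 11.5 kb for DMSO, 13.6 kb for ATRA, 13.7 kb for Corin and 13.9 kb for ATRA+Corin. With the limit of 5, and again with equal list lengths, Corin lost 1 region against DMSO (PCDHB2), ATRA+Corin gained 1 region against ATRA, and ATRA+Corin gained 2 and lost 1 against Corin. With the limit on the side with the peak only, ATRA+Corin gained 1 against ATRA. In each of these 3 settings ATRA+Corin gained 2 regions against DMSO in place of 3, without the PCDHA1 intron. Of the 60 alternative counts of regions, 51 stayed within 1.5 times. No paired analysis was possible because the lists pool the libraries of a treatment, and for the same reason no replicate could be left out. Depth is unknown, so a missing peak says only that none was called.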
